A study of Mus musculus with 4 samples.

Results

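The 10 genes described are 6 regulators of G protein signalling (RGS), Rgs1, Rgs2, Rgs10, Rgs14, Rgs16 and Rgs19, and 4 alpha subunits of heterotrimeric G proteins, Gnai2, Gnai3, Gna13 and Gnas. They were chosen by symbol, and all 10 matched a gene among the 50600 in the count tables. RNA came from primary cells labelled regulatory T cell, of the mouse strain C57BL/6NJ, in 4 libraries that form 1 group, so there is no treated or control group to compare. The labels call the molecule total RNA but cite a library protocol titled for poly(A) RNA, and also cite a protocol for differentiating CD4 T cells. The column names in the tables read activated and 0 h. The labels give 4 biosamples but 1 donor record, and neither age nor sex, so p-values measure only the spread between these libraries, which may be technical.

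A heterotrimeric G protein couples a seven-helix receptor to the inside of the cell. The receptor makes the alpha subunit exchange GDP for GTP, alpha and the beta-gamma pair separate, and both act on effectors until alpha hydrolyses its GTP. RGS proteins speed that hydrolysis and so shorten the signal. In T cells, Gαi carries signals from chemokine and sphingosine 1-phosphate receptors, Gαs raises cyclic AMP, and Gα13 activates the small GTPase RhoA.

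The library totals ran from 23000465 counts in replicate 3 to 62090744 counts in replicate 2, a 2.70-fold difference. Levels are given as TPM, which divides a gene's count by its exon length and scales every library to the same sum, and a gene was called detected at 1 TPM or more in all 4 libraries. The T cell genes Trac (3435 ± 137 TPM), Cd4 (1067 ± 31.4 TPM) and Cd3e (485.1 ± 20.1 TPM) were high (SD, n = 4). Regulatory T cell genes were detected at lower levels, with Foxp3 at 8.28 ± 0.867 TPM, Ctla4 at 7.77 ± 0.959 TPM, Ikzf2 at 1.34 ± 0.194 TPM, Nrp1 at 1.29 ± 0.173 TPM and Tnfrsf18 at 107 ± 3.805 TPM (SD, n = 4). Il2ra, the interleukin 2 receptor alpha chain, had 6.22, 3.63, 9.13 and 3.11 TPM in replicates 1 to 4 and varied between libraries (edgeR, adjusted p = 1.19e-07). In bulk RNA, fewer cells of a type and less RNA per cell cannot be told apart.

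Stretches of the 4 alpha subunit genes are shown to let a reader see what these related genes share and where they differ. The nucleotide-binding loop, common to the family, was found as 8 codons that encode glycine, any residue, glycine, glutamate, serine, glycine, lysine and serine. These codons are in capitals below, written 5′ to 3′ on the coding strand, from GENCODE M21 transcripts on mm10 (GRCm38).
Gnai2 at chr9:107620431-107635109, minus strand: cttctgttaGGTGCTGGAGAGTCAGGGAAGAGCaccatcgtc
Gnai3 at chr3:108123806-108145897, minus strand: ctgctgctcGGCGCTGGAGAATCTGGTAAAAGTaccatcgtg
Gna13 at chr11:109363127-109363168, plus strand: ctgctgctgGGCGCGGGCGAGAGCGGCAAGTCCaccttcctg
Gnas at chr2:174330425-174334243, plus strand: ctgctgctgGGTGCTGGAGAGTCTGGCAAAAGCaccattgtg
The stretch crosses an intron in Gnai2, Gnai3 and Gnas and lies in 1 exon in Gna13. All 4 genes carry the pattern, written with different codons.

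The last 33 coding bases, stop codon included, encode the tail that contacts the receptor, and the capitals mark the fourth codon from the end, the stop codon not counted.
Gnai2 at chr9:107615635-107615667, minus strand: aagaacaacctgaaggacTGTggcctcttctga
Gnai3 at chr3:108109422-108109454, minus strand: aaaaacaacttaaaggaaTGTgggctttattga
Gna13 at chr11:109396454-109396486, plus strand: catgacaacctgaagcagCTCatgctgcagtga
Gnas at chr2:174346356-174346388, plus strand: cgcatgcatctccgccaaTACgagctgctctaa
This codon encodes cysteine in Gnai2 and Gnai3, leucine in Gna13 and tyrosine in Gnas. That cysteine is the residue that pertussis toxin modifies, which is why the toxin blocks Gαi and neither Gα13 nor Gαs.

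Gnai2 and Gnai3 are the closest pair by coding sequence, and a stretch of both is shown because their reads must be told apart for their levels to be compared. Over 1059 aligned coding bases, 789 were identical (74.5%), and the longest identical run was 22 bases. The other pairs of members were 62.8% to 67.1% identical. In the 90 aligned bases that start at the nucleotide-binding loop stretch, the capitals mark the 20 mismatched bases.
Gnai2 at chr9:107620152-107635109, minus strand: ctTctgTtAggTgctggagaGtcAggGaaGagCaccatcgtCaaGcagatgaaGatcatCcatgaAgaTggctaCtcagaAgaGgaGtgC
Gnai3 at chr3:108123647-108145897, minus strand: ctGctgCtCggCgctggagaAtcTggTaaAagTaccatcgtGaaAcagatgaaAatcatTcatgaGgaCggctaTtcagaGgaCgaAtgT
None of the 50-base words of Gnai3 transcripts occurred in another gene (0%), and 1.92% of those of Gnai2 did, mostly in Acbd6, BC025920 and Gm22625. The coding sequences used hold 355 codons in Gnai2, 354 in Gnai3, 377 in Gna13 and 394 in Gnas, the stop codon not counted. Forms of Gnas with another long first exon were left out, so its codon count and identities hold only for the form used.

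All 10 members passed the low-count filter and were detected, against 11387 of the 12554 genes that passed the low-count filter (90.7%). Their median level was 158 TPM, beside 23.9 TPM over all genes tested. The members covered a wide range, with Gnai2 at 691 TPM highest and Rgs1 at 1.13 TPM lowest. The plot of member levels by library shows 7 members above 100 TPM in every library, Rgs2 near 18 TPM, and Rgs16 and Rgs1 near the detection limit.

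**Figure D1:**
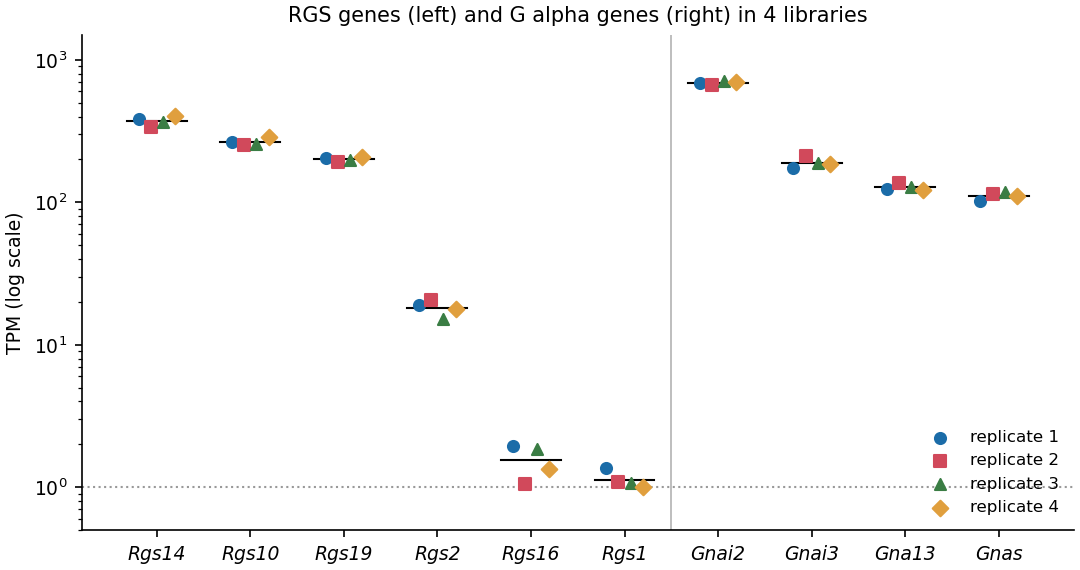
Level of each member in TPM on a log axis, with 1 point per library for the 4 libraries and a bar at the mean. The libraries lie close together for Gnai2 (667 to 707 TPM) and wide apart for Rgs16 (1.05 to 1.94 TPM), and the dotted line is the detection limit of 1 TPM.

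Gnai2 (chromosome 9, 107614125 to 107635367, minus strand) encodes Gαi2, the main inhibitory alpha subunit of lymphocytes, whose loss in mice impairs lymphocyte migration and causes colitis. It had 689, 667, 707 and 701 TPM in replicates 1 to 4, which is 691 ± 17.7 TPM (SD, n = 4). CPM is a gene's count scaled to the library total, with no length. On the log2 scale of CPM, with library totals adjusted by TMM, the libraries lay within 0.13. The mean TPM of Gnai2 ranked at place 170 of the 50600 genes. Gnai3 (chromosome 3, 108107280 to 108146146, minus strand) encodes the close relative Gαi3. Its levels were 173, 210.5, 189 and 185 TPM, a mean of 189 ± 15.6 TPM (SD, n = 4), with replicate 2 highest.

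The ratio of Gnai2 to Gnai3 was 3.98, 3.17, 3.75 and 3.79 in replicates 1 to 4. Gnai2 was higher in 4 of 4 libraries and the ranges did not overlap, with a mean log2 ratio of 1.87 ± 0.14 (SD, n = 4). The exact two-sided sign-flip test gave p = 0.125, the smallest that 4 libraries allow, so no pair of members could reach 0.05. Adjusted over the 8 neighbouring pairs in the order of levels, every p of 0.125 given here becomes 0.143.

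Gna13 (chromosome 11, 109362831 to 109401369, plus strand) encodes Gα13, which acts on RhoA through exchange factors such as Arhgef1. It had 123, 136, 128 and 123 TPM, a mean of 127 ± 6.03 TPM (SD, n = 4). Gnai3 was above it in 4 of 4 libraries, by a log2 ratio of 0.57 ± 0.06 (exact sign-flip p = 0.125, n = 4). Without length the order turned, with 177 ± 13.8 CPM for Gnai3 and 234 ± 9.64 CPM for Gna13, a log2 ratio of -0.41.

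Gnas (chromosome 2, 174284320 to 174346744, plus strand) encodes Gαs, the activator of adenylyl cyclase, from an imprinted locus with several first exons. Its levels were 103, 115, 117 and 111 TPM, a mean of 112 ± 6.47 TPM (SD, n = 4), with replicate 1 lowest. Gna13 exceeded it in 4 of 4 libraries by a log2 ratio of 0.19 ± 0.07, with ranges that did not overlap (exact sign-flip p = 0.125, n = 4). This order depends on gene length, because the Gnas length of 11186 bases counts the exons of all its transcripts, of which M21 lists 24.

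With the longest M21 transcript of each gene as its length (3947 bases for Gnas), Gna13 had 106 ± 4.97 TPM and Gnas had 252 ± 14.5 TPM (SD, n = 4). Without any length, Gna13 had 234 ± 9.64 CPM and Gnas had 358 ± 22.9 CPM. The log2 ratio of Gna13 to Gnas was -1.25 by longest transcript and -0.61 by CPM, so the order turned under both, as the plot of levels on 3 length scales shows. On the opposite strand, exons of Nespas and Gm20721 overlap 21.96% of the Gnas exon bases, and the counting used strand.

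Rgs14 (chromosome 13, 55369732 to 55384687, plus strand) was the highest RGS gene. It encodes an RGS protein that also has a GoLoco motif, which holds Gαi in its GDP form, and Ras-binding domains. It had 385, 339.8, 368 and 403 TPM in replicates 1 to 4, a mean of 374 ± 27.0 TPM (SD, n = 4). Replicate 4 was highest and replicate 2 lowest, 0.30 apart on the TMM-scaled log2 CPM scale.

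Rgs10 (chromosome 7, 128373621 to 128418758, minus strand) encodes a small RGS protein, little more than the RGS domain, that acts on Gαi. It had 266, 252.2, 257 and 285 TPM, a mean of 265 ± 14.6 TPM (SD, n = 4). Rgs14 was higher in 4 of 4 libraries by a log2 ratio of 0.49 ± 0.05, with ranges that did not overlap (exact sign-flip p = 0.125, n = 4). This order also turned with the length used. By longest transcript, 880 bases for Rgs10 in place of 1711, Rgs14 had 311 ± 22.5 TPM and Rgs10 had 409.9 ± 22.5 TPM, a log2 ratio of -0.40.

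Rgs19 (chromosome 2, 181688419 to 181693977, minus strand) encodes a membrane-anchored RGS protein, also called GAIP, that was identified by its binding to Gαi3. It had 205, 193, 198 and 209.6 TPM, a mean of 201 ± 7.48 TPM (SD, n = 4). Rgs10 was above it in 4 of 4 libraries by a log2 ratio of 0.39 ± 0.03 (exact sign-flip p = 0.125, n = 4). In CPM, with no length, Rgs10 had 129.95 ± 8.12 and Rgs19 had 129 ± 5.71, a log2 ratio of 0.01 (exact sign-flip p = 0.875, n = 4). Rgs10, Rgs14 and Rgs19 were all lowest in replicate 2 and highest in replicate 4.

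Rgs2 (chromosome 1, 143999338 to 144004161, minus strand) encodes an RGS protein with a preference for Gαq, and mice without it have weaker T cell proliferation. It had 19.0, 20.6, 15.2 and 17.9 TPM, a mean of 18.2 ± 2.26 TPM (SD, n = 4). Rgs19 was 11.1 times higher (log2 ratio 3.47 ± 0.20, 4 of 4 libraries, exact sign-flip p = 0.125, n = 4). The counting intervals of replicate 3 (13.7 to 16.9 TPM, from 369 counts) and replicate 2 (19.5 to 21.8 TPM, from 1311 counts) did not overlap. These are exact 95% Poisson intervals, which cover counting error only.

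Rgs16 (chromosome 1, 153740349 to 153745468, plus strand) and Rgs1 (chromosome 1, 144242296 to 144249242, minus strand) encode small RGS proteins known to be induced when lymphocytes are activated. Rgs1 dampens chemokine receptor signalling in B and T cells. Rgs16 had 1.94, 1.05, 1.86 and 1.34 TPM, from 33, 43, 29 and 56 counts, a mean of 1.55 ± 0.426 TPM (SD, n = 4). Rgs1 had 1.37, 1.08, 1.08 and 1.00 TPM, from 69, 132, 50 and 125 counts, a mean of 1.13 ± 0.160 TPM (SD, n = 4). Both were highest in replicate 1, and both lay close to the detection limit.

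The levels of Rgs16 and Rgs1 did not separate at this depth. Rgs16 was higher in 3 of 4 libraries, the ranges overlapped, and the log2 ratio was 0.39 ± 0.32 (exact sign-flip p = 0.25, also 0.25 after adjustment, n = 4). In CPM the log2 ratio was -1.08, where the exon length (2339 bases for Rgs16 and 6947 bases for Rgs1) is not used. The 95% Poisson interval of Rgs16 was 1.34 to 2.73 TPM in replicate 1 and 0.759 to 1.41 TPM in replicate 2. Rgs2 exceeded Rgs16 by 11.4 times (log2 ratio 3.50 ± 0.53, 4 of 4 libraries, exact sign-flip p = 0.125, n = 4).

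**Figure D2:**
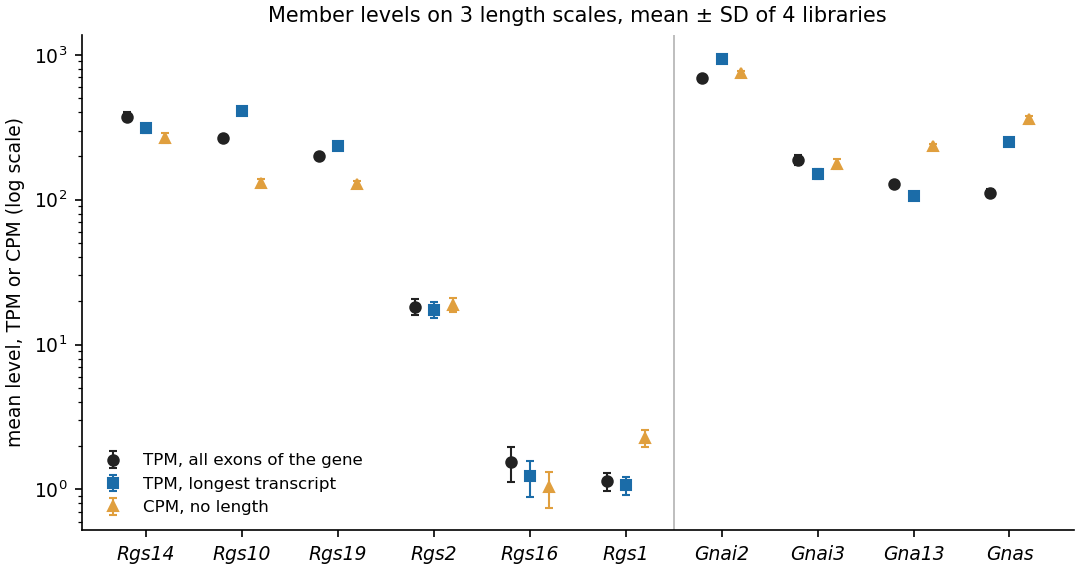
Mean level of each member on 3 scales, TPM with all exon bases, TPM with the longest transcript and CPM with no length, on a log axis, with error bars of 1 SD over the 4 libraries. Gna13 and Gnas change places between the scales (127 and 112 TPM with all exon bases, 234 and 358 CPM with none), while Gnai2 stays highest on each.

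Rgs14, Rgs10 and Rgs19 made up most of the RGS transcripts. Of the summed TPM of the 21 Rgs genes in the table, Rgs14 held 40.3 ± 0.817%, Rgs10 held 28.6 ± 0.430% and Rgs19 held 21.7 ± 0.390% (SD, n = 4). Together they held 90.6 ± 0.280%, with 90.7%, 90.3%, 90.6% and 91.0% in replicates 1 to 4. Rgs2 held 1.97 ± 0.301%, Rgs16 0.167 ± 0.0449% and Rgs1 0.123 ± 0.0177%. By CPM the Rgs1 share was 0.338%, and the Rgs10 share was 38.3% by longest transcript and 19.4% by CPM.

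Of the 15 other Rgs genes, 3 were detected and 8 had no count in any library. Rgs11, best known from neurons and the retina, had 42.7 ± 2.15 TPM and Rgs3, which acts on Gαi and Gαq, had 21.1 ± 1.09 TPM (SD, n = 4), so both had higher means than the member Rgs2. Rgs12, a large protein with a GoLoco motif, had 1.69 ± 0.233 TPM. The plot of family shares shows this split with its SD.

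Gαi likewise made up most of the alpha subunit transcripts. Of the summed TPM of the 16 G alpha genes, Gnai2 held 57.8 ± 1.58%, Gnai3 15.8 ± 1.18%, Gna13 10.7 ± 0.457% and Gnas 9.33 ± 0.379% (SD, n = 4). Gnai2 and Gnai3 together held 73.6 ± 0.460%, and the library values ran from 73.0% to 74.05%. By longest transcript the shares were 62.0% for Gnai2, 9.95% for Gnai3, 6.98% for Gna13 and 16.6% for Gnas. By CPM they were 46.7% for Gnai2, 11.04% for Gnai3, 14.6% for Gna13 and 22.3% for Gnas.

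Of the 12 other G alpha genes, 3 were detected and 6 had no count. They were Gna11 at 39.3 ± 2.67 TPM and Gnaq at 1.93 ± 0.277 TPM, both of the Gαq class that activates phospholipase C, and Gna12, the relative of Gna13, at 33.1 ± 0.437 TPM (SD, n = 4). The third Gαi gene, Gnai1, had no count, which allows up to 0.143 TPM by the limit of 3 counts in a library, nor had the neuronal Gnao1 or the transducins Gnat1, Gnat2 and Gnat3 of sensory cells.

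**Figure D3:**
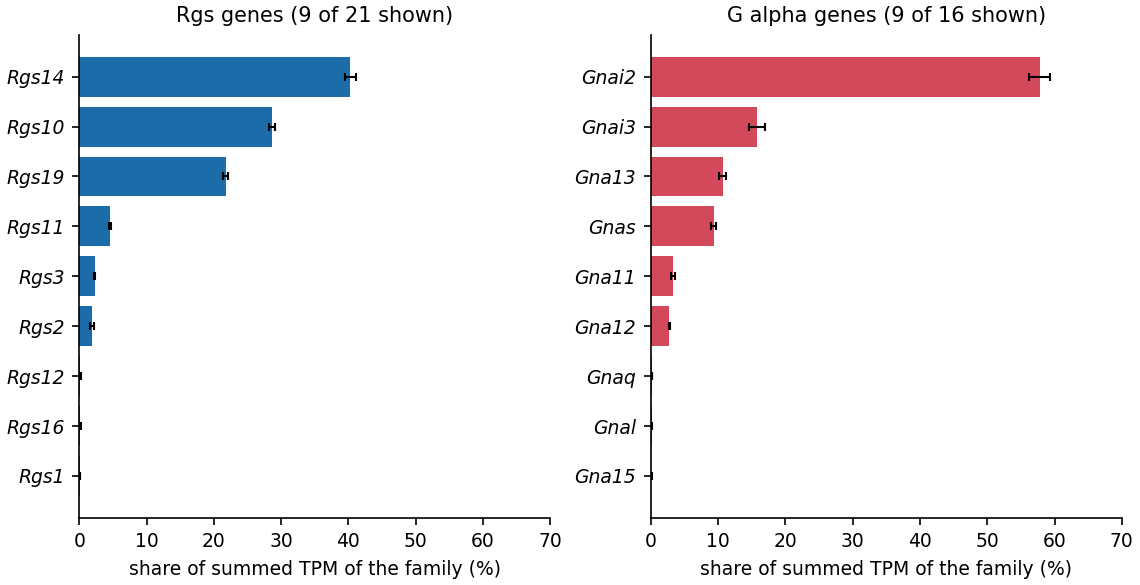
Share of each gene in the summed TPM of its family, in percent, for the Rgs family and the G alpha family, with bars at the mean of the 4 libraries and error bars of 1 SD. Rgs14, Rgs10 and Rgs19 fill 90.6% of the Rgs sum and Gnai2 and Gnai3 fill 73.6% of the G alpha sum. Rgs12 (0.183%), Rgs16 (0.167%) and Rgs1 (0.123%) have the smallest Rgs shares drawn.

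The summed level of the RGS genes was 945, 869, 908 and 986 TPM in replicates 1 to 4, against 1167, 1201, 1220.1 and 1196 TPM for the G alpha genes. The ratio of RGS to G alpha transcripts was therefore 0.810, 0.724, 0.744 and 0.825, lowest in replicate 2 and highest in replicate 4. The 5 G beta genes summed to 541 ± 21.2 TPM and the 12 G gamma genes to 83.2 ± 4.09 TPM (SD, n = 4). G alpha transcripts were 2.21 ± 0.112 times the G beta transcripts. These sums and ratios depend on the exon lengths used, and they were not recomputed by longest transcript or CPM.

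The beta and gamma subunits form the pair that anchors alpha to the membrane and signals on its own. Of the G beta genes 4 of 5 were detected, led by Gnb2 (294.6 ± 23.6 TPM) and Gnb1 (241 ± 5.66 TPM), with Gnb4 (3.55 ± 0.510 TPM) and Gnb5 (2.21 ± 0.475 TPM) far lower (SD, n = 4). Of the G gamma genes 5 of 12 were detected, namely Gng5 (28.1 ± 2.74 TPM), Gngt2 (21.8 ± 1.75 TPM), Gng2 (20.4 ± 2.88 TPM), Gng10 (7.03 ± 0.922 TPM) and Gng12 (5.69 ± 0.494 TPM). Exons of Gm20503 on the same strand overlap 71.99% of the Gng10 exon bases, so the Gng10 level is uncertain.

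Genes of the same families that lie beside the members had few counts or none. On chromosome 1, Rgs2, Rgs13, Rgs1, Rgs21 and Rgs18 are 5 consecutive protein-coding genes on the minus strand within 776098 bases. Rgs2 had 18.2 TPM and Rgs1 had 1.13 TPM, while Rgs13 and Rgs18 had 5 counts each over the 4 libraries and Rgs21 had none. Rgs16 lies 40025 bases from Rgs8, the next protein-coding gene, which had 2 counts over the 4 libraries.

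Gnai2 and Gnai3 each lie near a transducin gene without a count. Gnat1 lies 39106 bases from Gnai2, with Slc38a3 between them, which also had no count. Gnat2 lies 5847 bases from Gnai3. Gna11 and Gna15 lie 4498 bases apart on chromosome 10, with 39.3 TPM for Gna11 and 1.18 TPM for Gna15.

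No member was called as varying between libraries more than genes of its abundance do. Of the 12554 genes tested in edgeR across the 4 libraries, 142 were called at an adjusted p under 0.05 (1.13%), and of the 10 members 0 were called. At an unadjusted p under 0.05 the count was also 0, and the share over all genes at that threshold is not given here. The DESeq2 dispersion trend called 0 members and 0.948% of all genes tested. Edger's common dispersion called 0 members and 2.8% of all genes tested. With shares this small, 0 of 10 does not set the members apart from other genes. With edgeR's trended dispersion, the unadjusted p ran from 0.193 for Rgs2 to 0.898 for Gna13 and every member's adjusted p was 1. With edgeR's common dispersion Rgs16 had an unadjusted p of 0.0502 and an adjusted p of 0.492, and with the DESeq2 trend Rgs14 had an unadjusted p of 0.0616 and an adjusted p of 1. A p that misses the threshold does not show equal levels.

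The members' ranges of TMM-scaled log2 CPM had a median of 0.25, beside 0.24 over all genes tested. Gna13 (0.12) and Gnai2 (0.13) had the smallest ranges, and Rgs16 (0.87), Rgs2 (0.40) and Rgs1 (0.40) the largest, as the plot of deviations by library shows. On that TMM-scaled scale, replicate 2 was the lowest library for 5 members, Gnai2, Rgs10, Rgs14, Rgs16 and Rgs19, and was lowest for 27.8% of all genes tested. Replicate 4 was the highest library for Gnai2, Rgs10, Rgs14 and Rgs19, and for 20.5% of all genes tested.

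**Figure D4:**
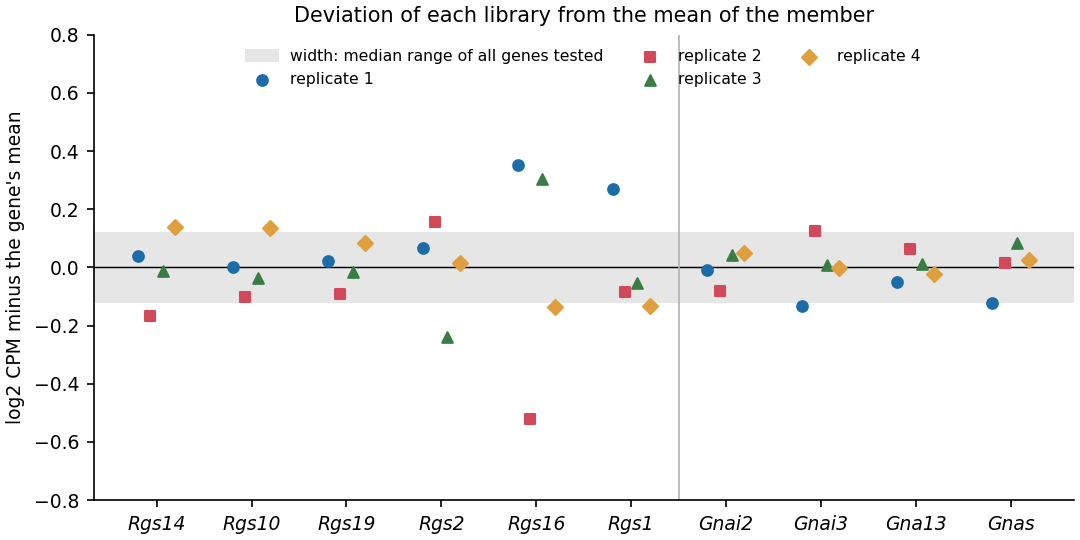
TMM-scaled log2 CPM of each member in the 4 libraries, drawn as the difference from its mean, with a grey band as wide as the median range of all genes tested. Rgs16 spans 0.87, Rgs1 and Rgs2 span 0.40, and Gnai2 and Gna13 stay within 0.13.

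Markers of other cells were checked beside these values. B cell genes moved between libraries, with 5 of 8 detected, 6 called variable and a summed level of 106, 64.3, 64.5 and 23.6 TPM in replicates 1 to 4. Rgs1, which B cells also express, was highest in replicate 1 and lowest in replicate 4. Its 95% Poisson intervals there overlapped, at 1.06 to 1.73 TPM in replicate 1 and 0.836 to 1.20 TPM in replicate 4. This order of Rgs1 thus lies within counting error, and the part of B cells in its level was not tested. Of the myeloid genes 5 of 8 were detected, and all 8 summed to 18.2 to 24.5 TPM. Cd68 was highest of them at 11.7 ± 1.05 TPM (SD, n = 4), and Cd14 was lowest with 1 count over all libraries. Natural killer genes summed to 7.85 to 13.1 TPM, with 2 of 4 detected. Of the CD8 genes, Cd8b1 had 39.96 ± 2.55 TPM and Cd8a 0.794 ± 0.288 TPM (SD, n = 4). Of the 5 platelet genes, Itga2b was detected at 3.17 ± 0.559 TPM (SD, n = 4), Gp1bb had 1 count, and Ppbp, Pf4 and Gp9 had none, and Rgs18, an RGS gene of platelets, had 5.

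Most genes on the lists of alpha subunit chaperones, GoLoco proteins and Gβγ effectors were detected, beside 90.7% of all genes tested. None was called variable, beside 1.13% of all genes tested, so neither count sets these lists apart. The plot of pathway genes sets each list beside the members. All 6 genes for alpha subunit chaperones and GoLoco proteins were detected, with a median of 22.1 TPM. Gpsm3, a GoLoco protein of blood cells, had 619.6 ± 37.5 TPM, Ric8a, which folds alpha subunits, had 77.2 ± 0.566 TPM and Pdcl, which assembles Gβγ, had 26.7 ± 0.861 TPM, while Gpsm2 was lowest at 11.7 ± 1.29 TPM (SD, n = 4). Exons of Pbx2 on the same strand overlap 16.9% of the Gpsm3 exon bases. Of the 6 Gβγ effectors, 5 were detected, with the phosphoinositide 3-kinase subunit Pik3r5 at 279 ± 13.7 TPM, the Rac exchange factor Prex1 at 209 ± 14.0 TPM and the phospholipase Plcb2 at 158 ± 12.1 TPM, and Pik3r6 had 6 counts.

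Single genes led the lists of adenylyl cyclases and of Gα12 and Gα13 effectors. Of 10 adenylyl cyclases 4 were detected, with Adcy7 at 449 ± 14.8 TPM, Adcy6 at 79.1 ± 8.60 TPM and Adcy3 at 29.1 ± 2.23 TPM, and Adcy2 and Adcy8 had no count. All 6 Gα12 and Gα13 effectors were detected, with a median of 77.7 TPM. Arhgef1, the RhoA exchange factor of leukocytes, had 1671 ± 137 TPM, above Rhoa itself (146 ± 6.35 TPM), Rock1 (98.2 ± 8.38 TPM) and Arhgef12 (5.87 ± 0.169 TPM) (SD, n = 4).

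Receptors that couple to Gαi, Gαs and Gα12/13 were detected. Of 16 Gαi-coupled receptors 12 were, with a median of 5.38 TPM, led by the lymph node homing receptor Ccr7 (1083 ± 37.7 TPM), the sphingosine 1-phosphate receptor S1pr1 (645 ± 41.9 TPM) and the chemokine receptor Cxcr4 (379 ± 35.6 TPM), with Ccr2 lowest (0.132 ± 0.0718 TPM) (SD, n = 4). Of 11 Gαs-coupled receptors 8 were detected, led by Vipr1, the receptor for vasoactive intestinal peptide, at 218 ± 9.35 TPM, and the acid-sensing Gpr65 at 70.3 ± 9.41 TPM, and Ptgdr had no count. Of 7 Gα12/13-coupled receptors 6 were detected, led by Gpr132 at 433 ± 19.6 TPM, the thromboxane receptor Tbxa2r at 163 ± 9.50 TPM and P2ry10 at 67.9 ± 10.3 TPM, with Gpr55 lowest at 0.80 ± 0.118 TPM.

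Among the kinases and arrestins that switch receptors off, 6 of 8 passed the detection limit, and the median was 26.8 TPM. The highest were Grk6 at 957 ± 26.6 TPM, Grk2 at 775 ± 37.5 TPM and Arrb2 at 486 ± 18.8 TPM, and the lowest was Grk1, the kinase of the retina, at 0.0333 TPM. No receptor, kinase or arrestin on these lists was called variable between libraries, where 1.13% of all genes tested were.

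Early response genes, which lymphocytes switch on within minutes of stimulation or handling, were measured because Rgs1, Rgs2 and Rgs16 are known to respond to activation. Of 15 such genes 12 were detected, with a median of 47.6 TPM and none called variable, beside 1.13% of all genes tested. Dusp2 (388 ± 21.3 TPM), Zfp36 (329.6 ± 8.40 TPM) and Ier2 (286 ± 17.5 TPM) were highest and Atf3 (0.242 ± 0.225 TPM) lowest (SD, n = 4). Their summed level was 1602, 1605, 1767 and 1607 TPM in replicates 1 to 4, highest in replicate 3. The summed level of Rgs1, Rgs2 and Rgs16 was 22.3, 22.8, 18.2 and 20.3 TPM, lowest in replicate 3. Most of this sum was Rgs2, which was itself lowest in replicate 3 (15.2 TPM). Rgs16 was lowest in replicate 2 (1.05 TPM) and Rgs1 in replicate 4 (1.00 TPM). The part of activation in these levels was not tested.

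**Figure D5:**
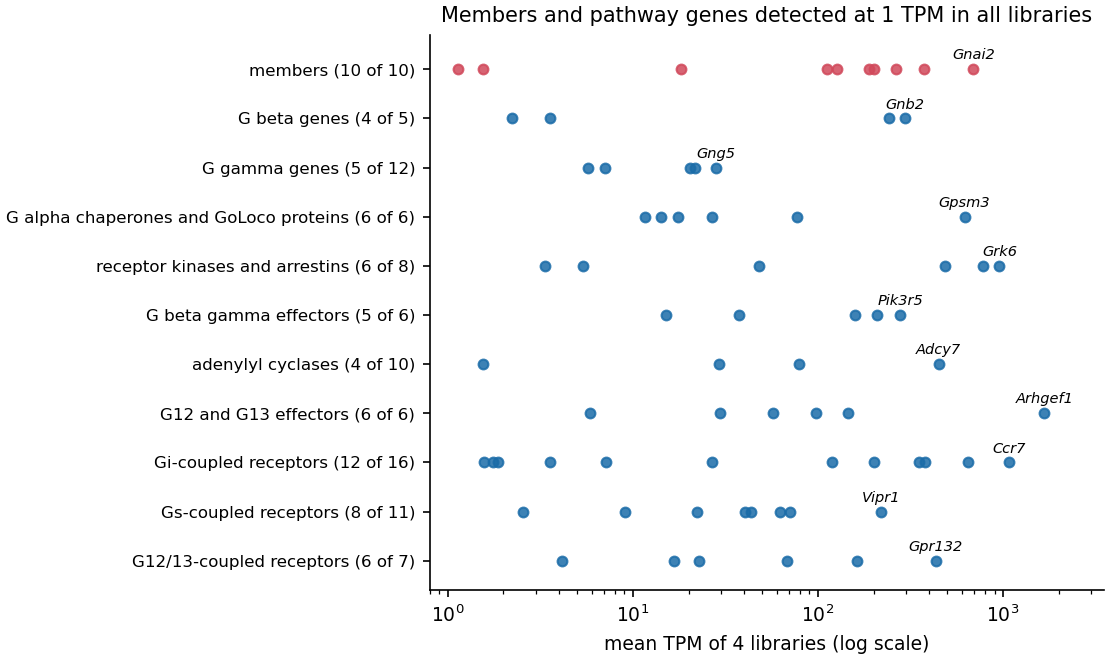
Mean TPM over the 4 libraries, on a log axis, with 1 point per detected gene of each pathway list and the 10 members at the top. The number detected stands beside each list, and the highest gene of each is named. Arhgef1 (1671 TPM), Ccr7 (1083 TPM), Grk6 (957 TPM) and Grk2 (775 TPM) lie above every member.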

How the data were processed

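RNA of 4 libraries of 1 group was analysed. The authors deposited raw counts of fragments for each gene. Per the file headers, featureCounts 1.4.6-p4 was run on mm10 with GENCODE M13 exons. Pairs needed both ends aligned, strand setting 2 was used, and no option for fragments with several alignments or several genes was set, per the file headers.

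TPM was calculated here by dividing counts by the deposited exon lengths. GENCODE M21, also on mm10, gave symbols, coordinates and sequences, matched on gene ID without version for 50376 of 50600 genes (99.6%). Totals per library were 25573253, 62090744, 23000465 and 61943411 counts in replicates 1 to 4, and the floor for a gene without counts was 3 counts per library, which covers counting error only.

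The members, the 21 gene lists and the tests were chosen with earlier results of these data known. Named genes are all members, every detected gene of the Rgs, G alpha, G beta and G gamma families, the 3 highest and the lowest of each other pathway list, any called variable, and cell type markers. A gene that this rule includes is not reported here by name. Family members without detection and neighbouring genes were named after their values were seen. Because no member was called variable, no genes of similar pattern were named.

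Log2 ratios used TPM plus 0.1 within a library and the exact sign-flip test over 16 sign patterns, adjusted by the Benjamini-Hochberg method. Variable genes were tested with R 4.3.3 and edgeR 4.0.16 after filterByExpr and TMM. An intercept was fitted by glmQLFit, and its residual deviance, at the trended dispersion, was compared with a chi-square distribution of 3 degrees of freedom. DESeq2 1.42.0 gave alternatives, and Python 3.11.15, numpy 2.4.6, pandas 2.3.3 and matplotlib 3.10.9 the other values and plots. Protein sequences were not used here.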

Additional observations from a re-analysis of the deposited data

Results flagged for a closer look

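Each named gene was checked for a library far from the other 3 in TPM. None of the 10 members had one (0 of 10), and 8 of 94 genes did, where chance gives about 1 in 20. The rule flags any gene whose only counts lie in 1 library, as for Cd14 and Gp1bb below. The 8 therefore do not show more outlying libraries than chance gives. Replicate 1 stood apart for Arhgef1 (1876.5 TPM, above the others), Gnb5 (2.92 TPM, above), Adcy3 (32.4 TPM, above) and Trac (3229.9 TPM, below). Replicate 2 stood apart, above the others, for S1pr1 (707.0 TPM), Rock1 (110.6 TPM), Cd14 (0.0363 TPM, from 1 count) and Gp1bb (0.0303 TPM, from 1 count).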

How the results depend on the processing

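Of 201 values recomputed under alternatives, 5 turned direction and 38 moved by more than the spread between libraries or, for counts, by over 1.5 times. The other 158 kept their direction or stayed within those bounds, among them the log2 ratio of Rgs10 to Rgs19, which was 0.01 by CPM. Leaving out a replicate cannot move a mean by as much as that spread, nor undo a detection. The levels, shares and detections that stayed the same without a replicate therefore say nothing about stability. By longest transcript, the log2 ratio of Rgs14 to Rgs10 was -0.40 and that of Gna13 to Gnas -1.25. By CPM, the log2 ratio was -1.08 for Rgs16 to Rgs1, -0.41 for Gnai3 to Gna13 and -0.61 for Gna13 to Gnas. Both alternatives change only the length by which counts are divided. By longest transcript the family shares were 0.1003% for Rgs1, 1.63% for Rgs2, 38.3% for Rgs10, 29.0% for Rgs14, 0.115% for Rgs16, 62.0% for Gnai2, 9.95% for Gnai3, 6.98% for Gna13 and 16.6% for Gnas. By CPM they were 0.338% for Rgs1, 2.84% for Rgs2, 19.4% for Rgs10, 19.3% for Rgs19, 46.7% for Gnai2, 11.04% for Gnai3, 14.6% for Gna13 and 22.3% for Gnas.

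The count of variable genes, 142, was 88 with no filter, 63 at a mean of at least 5 CPM (where only 8 members were tested), 352 with edgeR's common dispersion and 60 to 85 with 1 replicate left out. It was 139 with DESeq2 size factors and 119 with the DESeq2 trend, and no setting called a member. Leaving out a replicate turned no order of members. It could turn none where the same member was higher in every library, which held for all neighbouring pairs but Rgs16 and Rgs1. At 5 TPM, 8 members were detected, and at 1 CPM, 9. No paired analysis was possible because the libraries form 1 group. The lowest depth, 29 counts for Rgs16 in replicate 3, limits Rgs16 and Rgs1.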
